A study of Mus musculus with 24 samples.

Results

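The mitosis and division genes are 43 genes whose products carry a cell from the end of DNA replication through chromosome segregation to cytokinesis. They were chosen by symbol with earlier results of these data known, so the counts of genes called describe a chosen list. All 43 were found among the 37620 genes of the deposited table of estimated counts, and all 43 passed the filter on low counts. Their levels were read in jejunal crypts of 24 mice, the units of the small intestine in which epithelial cells are made. Every mouse received tamoxifen intraperitoneally at 56 mg/kg on 3 consecutive days at an age of 5 to 10 weeks, Control mice included, and crypts were collected on day 1 (24 h) or day 2 (48 h). The groups were ApccKO;NlecKO (called the double knockout here), NlecKO, ApccKO and Control, with 3 mice of each on each day and 1 library per mouse. NlecKO is a conditional knockout of Nle1, which encodes Notchless, a factor that helps to build the large subunit of the ribosome. ApccKO is a conditional knockout of Apc, whose product restrains Wnt signalling. The labels state neither the promoter that drives the recombinase nor the alleles or strain.

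A cell enters mitosis when cyclin-dependent kinase 1, bound to cyclin A or B, is freed of inhibitory phosphate by Cdc25 phosphatases. Chromosomes are then compacted by condensin and topoisomerase II, attached to spindle microtubules through kinetochores under the watch of the spindle checkpoint, and separated when the anaphase-promoting complex triggers the protease separase. Transcripts of these genes accumulate in G2 and M phase and are kept low in resting cells, so that in crypts they come mainly from the dividing stem and transit-amplifying cells. In bulk RNA, fewer dividing cells and less of these transcripts per dividing cell cannot be told apart.

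The libraries held 17.86 to 26.47 M estimated counts, and the count of a division gene in a library lay between 50 for Cdc25c and 11120 for Mki67. Levels per library are given in CPM (counts scaled to a common library size by TMM), levels between genes in TPM (which also allows for transcript length), and changes as log2 ± SE. A gene is called higher or lower where edgeR's quasi-likelihood test gave a Benjamini-Hochberg adjusted p under 0.05 over the 16552 genes tested. Nle1 lay between 7.79 and 12.3 CPM in double knockout libraries, 4.81 and 7.30 in NlecKO, 34.2 and 39.9 in ApccKO and 20.1 and 27.9 CPM in Control libraries, and was below every Nle1-intact library in every Nle1-deleted one. Apc lay between 112.2 and 158.1 CPM in the 24 libraries, and counts over the whole gene do not check the deletion of a part of it. The submitters' code numbers place the Apc-lost libraries in 1 run between the Apc-intact ones, so a batch of that run and the loss of Apc cannot be told apart. The code numbers of day 1 all come before those of day 2, so a batch by that order and the day cannot be told apart either. In earlier results of these data 3 libraries of day 1 stood apart, ApccKO replicates 2 and 3 and double knockout replicate 3, and counts that change by over 1.5 times without them are given both ways. Every library held crypt epithelium by its markers, with 5306 to 9330 CPM for 6 epithelial markers, Epcam among them, and 5628 to 13760 CPM for 5 Paneth cell markers, Lyz1 among them. Of the division genes, Cks2, Ccnb1, Cdc20 and Plk1 share 31.7%, 27.7%, 25.5% and 14.8% of their 31-base words with other genes, mostly pseudogenes, against at most 7.86% for the others. The values of the genes named are less certain for that reason, by an amount that was not measured.

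The promoters of these genes are known for a short element, the cell cycle homology region with the core TTTGAA, through which the MuvB complexes hold them down in resting cells and raise them in G2, and for CCAAT boxes bound by NF-Y. RefSeq promoter windows (GRCm38.p6, 250 bases before to 50 after the transcript start) were matched for 37 of the 43 genes. The letters TTTGAA on either strand stood in 28 of the 37 windows (75.7%), against 5466 of 27025 genes (20.2%). Within 50 bases of the start they stood in 25 of 37 (67.6%), against 5.72% of all genes. CCAAT on either strand stood in 29 of 37 (78.4%), against 41.1%, and in 2 or more places in 19 (51.4%), against 13.3%. Both words stood in 25 windows (67.6%), against 7.97% (the words were searched separately, so that a shared end base was allowed). The 150 bases before the start are printed for 5 genes to show these arrangements. Cdk1 (chr10:69352913-69353062, minus strand), the kinase of mitotic entry, and Espl1 (chr15:102296143-102296292, plus strand), which encodes separase, hold both words close to the start. Mki67 (chr7:135716380-135716529, minus strand) holds them farther from it. Ect2 (chr3:27153879-27154028, minus strand) has both words and is the gene whose level followed the others least. Ccnb1 (chr13:100786487-100786636, minus strand) has CCAAT in 2 places and no TTTGAA. Each is written 5′ to 3′ on the strand of the gene, and the capitals mark TTTGAA or CCAAT or their reverse complements:
Cdk1: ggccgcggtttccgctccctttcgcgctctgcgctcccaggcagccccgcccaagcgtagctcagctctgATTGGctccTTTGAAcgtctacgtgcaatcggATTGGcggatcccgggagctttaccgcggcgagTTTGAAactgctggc
Espl1: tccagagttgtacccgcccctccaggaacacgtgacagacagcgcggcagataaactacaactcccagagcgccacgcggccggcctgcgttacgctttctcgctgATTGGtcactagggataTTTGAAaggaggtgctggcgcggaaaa
Mki67: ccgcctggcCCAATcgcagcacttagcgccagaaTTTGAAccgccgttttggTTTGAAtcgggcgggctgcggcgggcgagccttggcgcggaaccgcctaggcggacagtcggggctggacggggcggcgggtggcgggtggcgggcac
Ect2: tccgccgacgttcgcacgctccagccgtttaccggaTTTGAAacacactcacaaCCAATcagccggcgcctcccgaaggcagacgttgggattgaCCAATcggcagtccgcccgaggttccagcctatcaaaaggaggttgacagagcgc
Ccnb1: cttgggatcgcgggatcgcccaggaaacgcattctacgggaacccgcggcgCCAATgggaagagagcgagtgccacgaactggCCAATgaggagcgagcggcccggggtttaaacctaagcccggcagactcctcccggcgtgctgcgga

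A match describes letters and not a bound site. The median log2 change was set side by side for the 28 genes with TTTGAA and the 9 without it, as a description with no test. It was -0.61 with and -0.60 without for NlecKO against Control on day 2, -1.0 and -0.92 for the double knockout against ApccKO, and 0.42 and 0.32 for ApccKO against Control on that day. The widest gap among the comparisons that follow was -0.36 with and -0.20 without, in the day 2 difference between the effects of Nle1 loss with Apc lost and intact.

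**Figure D1:**
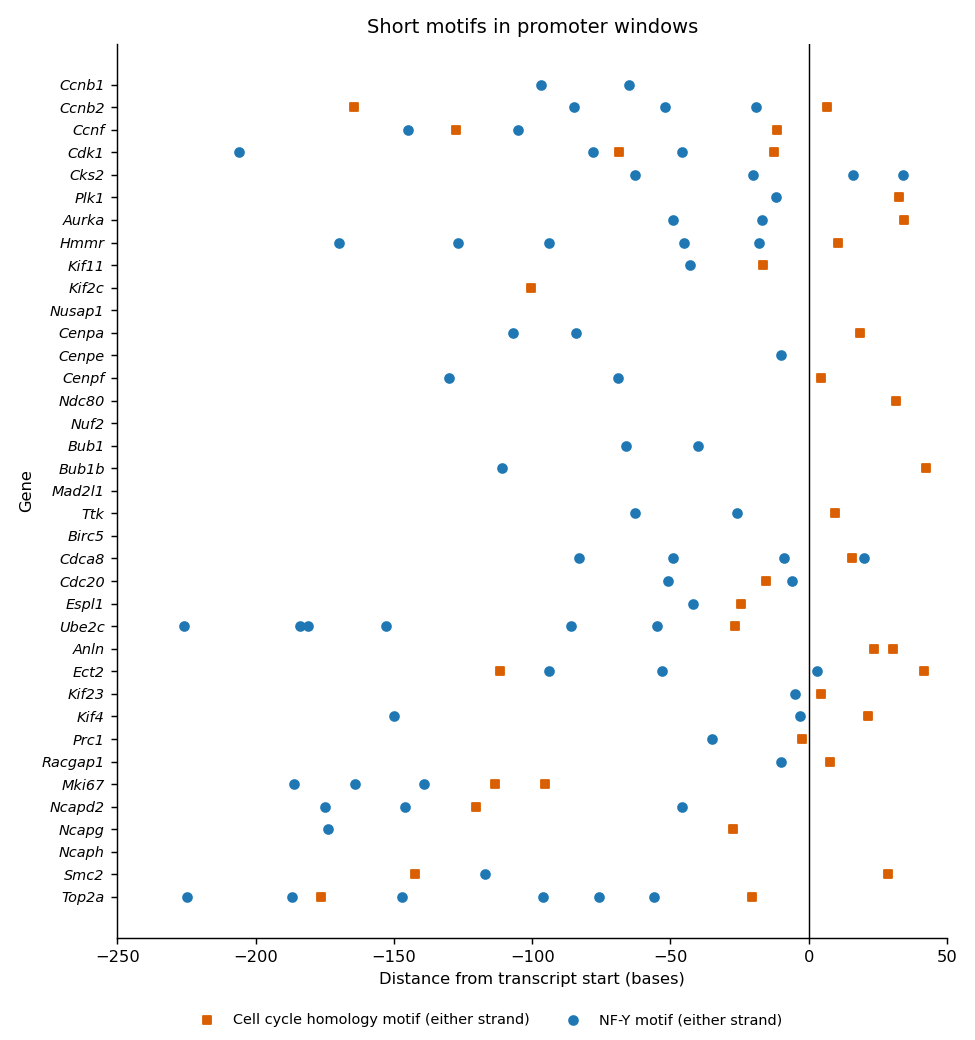
Distance in bases from the transcript start (vertical line) of each match to the cell cycle homology motif (squares) and the NF-Y motif (circles), on either strand, in the promoter windows of 37 division genes. Squares gather within 50 bases of the start, where 25 of the 37 genes have one, and the NF-Y motif lies mostly before the start.

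Taken as a whole, the transcripts of the 43 genes were most abundant in ApccKO crypts and had the lowest mean in NlecKO crypts on each day. The double knockout was near NlecKO on day 2 only. On day 1 their summed level was 3280, 3228 and 2227 CPM in double knockout crypts, 1680, 2266 and 2188 CPM in NlecKO crypts, 4268, 4115 and 4073 CPM in ApccKO crypts, and 2462, 3104 and 3461 CPM in Control crypts. On day 2 it was 1881, 2172 and 1834 CPM in double knockout crypts, 2132, 1664 and 1822 CPM in NlecKO crypts, 3837, 3419 and 3690 CPM in ApccKO crypts, and 2468, 3386 and 2761 CPM in Control crypts. All NlecKO libraries lay below and all ApccKO libraries above the Control libraries of their day, while the double knockout overlapped Control on day 1 and lay below it on day 2.

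Per transcript length, Ube2c, which encodes a ubiquitin-conjugating enzyme of the anaphase-promoting complex, was the highest and Cdc25c, which encodes the phosphatase that activates cyclin-dependent kinase 1, the lowest of the 43 in each of the 8 groups. In Control crypts of day 1 Ube2c averaged 156 ± 27.1 TPM and Cdc25c 4.76 TPM. Cks2, Top2a, Cdk1 and Birc5 followed Ube2c at 115 ± 21.0, 108 ± 23.7, 102 ± 26.4 and 88.0 ± 19.6 TPM (SD, n = 3), and the ranges over the 3 libraries overlapped between neighbours in this order. The median level over the 43 genes was 29.9 TPM in double knockout, 21.0 in NlecKO, 48.4 in ApccKO and 30.8 TPM in Control crypts on day 1, and 19.9, 19.6, 43.1 and 27.9 TPM in the same groups on day 2.

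Across the 24 libraries the genes moved together. The correlation of a gene's log level with the mean of the other 42 ranged from 0.70 for Ect2 to 0.99 for Top2a, with a median of 0.96, and after removal of the group means from 0.76 to 0.98, with a median of 0.93. These are descriptions over libraries that share genotype and cell composition.

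**Figure D2:**
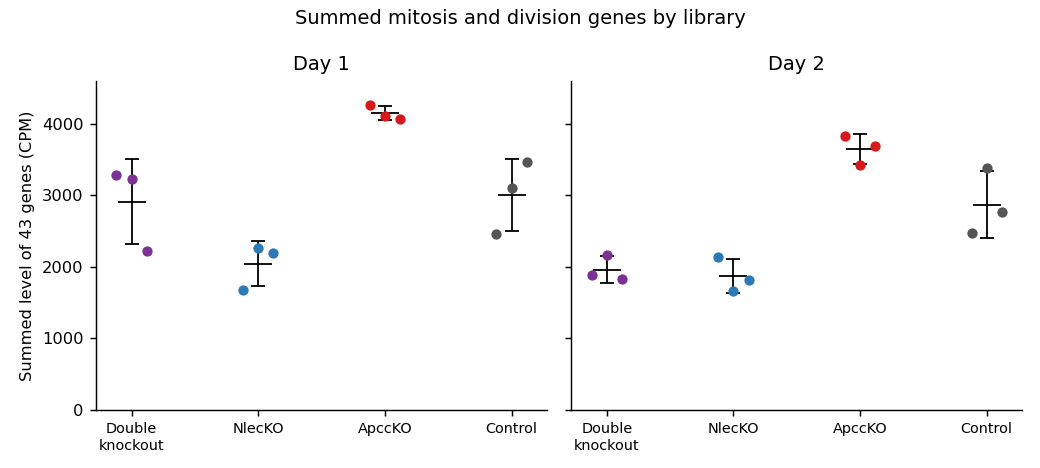
Summed level in CPM of the 43 division genes in each library (points, 1 mouse each) by genotype and day, with the mean and SD of 3 mice. On day 2 the double knockout and NlecKO libraries lie between 1664 and 2172 CPM, below every Control and ApccKO library.

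Loss of Nle1 with Apc intact, the comparison of NlecKO with Control, lowered division genes of every role by day 2. On day 1, 9 of the 43 were called lower and 0 higher, where 1.61% of all genes were called lower and 0.87% higher. All 43 log2 changes were negative, from -0.81 to -0.13 with a median of -0.56, and the libraries of the groups did not overlap for 29 genes, against 11.5% of all genes. The 9 were Mki67, Racgap1, Birc5, Smc2, Ncapd2, Ncapg, Ccna2, Anln and Ccnb2. On day 2, 33 were called lower and 0 higher, where 8.26% of all genes were called lower and 7.33% higher. The median log2 change was -0.60, the range -1.18 to 0.23, and 36 genes did not overlap between groups, against 15.3% of all genes. The median over all tested genes lay within -0.02 and 0.06 in every comparison.

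Among the 8 entry genes, 6 fell on day 2. Ccnb2, encoding cyclin B2, was at 37.27, 22.49 and 23.26 CPM in NlecKO crypts, against 53.07, 72.92 and 53.6 CPM in Control crypts, a change of -1.12 ± 0.19 (adjusted p = 0.0006). The groups did not overlap, and the highest NlecKO library lay well below the lowest Control library. Cdc25c showed the largest fall of the 43 (-1.18 ± 0.22, adjusted p = 0.0011). Cdk1 was at 37.45, 27.14 and 31.45 CPM in NlecKO crypts, against 43.41, 52.86 and 48.3 CPM in Control crypts (-0.59 ± 0.18, adjusted p = 0.032). Ccnb1, encoding cyclin B1, was at 45.62, 35.86 and 39.83 CPM in NlecKO crypts, against 52.84, 67.18 and 56.76 CPM in Control crypts (-0.55 ± 0.16, adjusted p = 0.023). Neither gene overlapped between the groups, though the NlecKO and Control libraries nearest each other were close.

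Of the 6 spindle genes 5 fell. Nusap1, whose product bundles spindle microtubules, gave the smallest p of all 43 at 26.68, 17.76 and 18.68 CPM in NlecKO crypts, against 41.78, 47.63 and 39.95 CPM in Control crypts (-1.04 ± 0.15, adjusted p = 0.0001). Each NlecKO library was lower than each Control library by a wide margin. All 5 kinetochore genes fell, among them Cenpf, at 35.47, 24.61 and 26.62 CPM in NlecKO crypts, against 48.94, 65.1 and 58.42 CPM in Control crypts (-1.0 ± 0.20, adjusted p = 0.0021). All 4 checkpoint genes fell too. Bub1b, encoding the checkpoint kinase BubR1, was at 49.89, 38.68 and 36.75 CPM in NlecKO crypts, against 55.75, 79.9 and 63.03 CPM in Control crypts (-0.67 ± 0.17, adjusted p = 0.013), with no overlap.

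The 3 genes of the chromosomal passenger complex, which corrects faulty attachments and then moves to the midzone, fell together. Birc5, encoding survivin, was at 41.23, 27.72 and 31.49 CPM in NlecKO crypts, against 48.88, 68.33 and 52.1 CPM in Control crypts (-0.76 ± 0.16, adjusted p = 0.0036). Of the 3 anaphase genes Cdc20 and Espl1 fell, the separase gene Espl1 at 37.51, 31.58 and 30.68 CPM in NlecKO crypts, against 45.62, 72.96 and 49.8 CPM in Control crypts (-0.76 ± 0.17, adjusted p = 0.0056). Neither gene with values here overlapped between the groups. Ube2c was not called (-0.24 ± 0.18, adjusted p = 0.43).

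Of the 7 midzone and cytokinesis genes 4 fell, with Racgap1, a subunit of centralspindlin, at 50.08, 36.48 and 37.36 CPM in NlecKO crypts, against 74.89, 101.3 and 70.31 CPM in Control crypts (-1.0 ± 0.16, adjusted p = 0.00042). Kif23, which encodes the other subunit of centralspindlin, was not called (-0.23 ± 0.15, adjusted p = 0.35). Of the 7 chromosome genes 4 fell. Mki67, encoding the Ki-67 protein that coats mitotic chromosomes, was at 219.9, 160.4 and 159.3 CPM in NlecKO crypts, against 309.8, 412.3 and 355.9 CPM in Control crypts (-1.0 ± 0.16, adjusted p = 0.00044). Top2a, encoding topoisomerase II alpha, was at 222.4, 170.3 and 174.1 CPM in NlecKO crypts, against 250.7, 332.3 and 285.3 CPM in Control crypts (-0.62 ± 0.17, adjusted p = 0.016). Both stood apart without overlap, Mki67 by the wider gap.

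These counts depended on single libraries. On day 1, leaving out Control replicate 1 gave 34 genes called lower, NlecKO replicate 2 gave 2, and any of the other 4 libraries gave 0, and DESeq2 called 25. On day 2, leaving out NlecKO replicate 2, NlecKO replicate 3 or Control replicate 2 gave 14, 13 and 13, and a fit to the 6 libraries compared gave 6. In that last fit adjusted p was 0.054 to 0.073 for Ccnb2, Cdc25c, Cdk1, Ccnb1, Birc5, Bub1b, Top2a and Espl1, while their log2 changes were within 0.01 of those above, and without the filter on low counts it was 0.059 for Cdk1. Without one of these 3, adjusted p was 0.071 to 0.083 for Top2a, 0.085 to 0.11 for Ccnb1 and 0.056 to 0.081 for Bub1b, and for Cdk1 it was 0.072 to 0.14 without one of them or Control replicate 3. On day 1 the call of Mki67 (-0.81 ± 0.16, adjusted p = 0.015) was lost without NlecKO replicate 1 or 3 or Control replicate 2 or 3 (adjusted p 0.059 to 0.11).

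Loss of Nle1 in crypts that had also lost Apc was read by comparing the double knockout with ApccKO. Division genes were called lower on both days, but the count of day 1 depended on single libraries. That count fell to 2 without double knockout replicate 3 and to 1 in a fit to only the libraries compared. On day 1, 23 of the 43 were called lower and 0 higher, where 4.77% of all genes were called lower and 5.87% higher, with a median log2 change of -0.52 and a range of -0.79 to -0.09. On day 2, 36 were called lower and 0 higher, where 15.4% of all genes were called lower and 19.5% higher, with a median of -0.96 and a range of -1.5 to -0.14. All 23 genes of day 1 were also among the 36 of day 2, an overlap not counted over all genes. The libraries did not overlap for 36 genes on day 1, against 14.3% of all genes, and for 41 on day 2, against 23.3%.

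By role, the genes called lower on day 2 were 7 of 8 entry, 5 of 6 spindle, 5 of 5 kinetochore, 4 of 4 checkpoint, 3 of 3 passenger, 2 of 3 anaphase, 4 of 7 midzone and 6 of 7 chromosome genes. Ccnb2 showed the largest change, at 24.52, 28.27 and 22.14 CPM in double knockout crypts, against 70.3, 71.67 and 69.54 CPM in ApccKO crypts (-1.5 ± 0.19, adjusted p = 8e-06). Cenpf was at 27.14, 27.31 and 22.5 CPM in double knockout crypts, against 76.2, 69.14 and 66.33 CPM in ApccKO crypts (-1.46 ± 0.20, adjusted p = 1.8e-05). In both genes every double knockout library lay far below every ApccKO library. Racgap1 was at 42.64, 47.64 and 42.14 CPM in double knockout crypts, against 112.2, 109.9 and 104.6 CPM in ApccKO crypts (-1.30 ± 0.16, adjusted p = 5.9e-06). The condensin subunit gene Ncapd2 gave the smallest p of the 43 (-1.43 ± 0.17, adjusted p = 4.6e-06).

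Cdk1 was at 30.59, 35.35 and 27.65 CPM in double knockout crypts, against 73.16, 58.82 and 64.56 CPM in ApccKO crypts on day 2 (-1.07 ± 0.18, adjusted p = 0.00016). Top2a was at 205.4, 231.6 and 191.8 CPM in double knockout crypts, against 468.9, 392.7 and 442.8 CPM in ApccKO crypts (-1.05 ± 0.17, adjusted p = 7.3e-05). Mki67 was at 143.7, 163.2 and 132.8 CPM in double knockout crypts, against 367.3, 308.5 and 347.2 CPM in ApccKO crypts (-1.22 ± 0.17, adjusted p = 1.3e-05). In all of these the double knockout libraries lay far below the ApccKO libraries. The smallest change was that of Ccnf, encoding cyclin F, a subunit of a ubiquitin ligase (-0.14 ± 0.16, adjusted p = 0.51).

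All 33 genes called lower in NlecKO against Control on day 2 were also among the 36 of 43 called lower in the double knockout against ApccKO on day 2. No library enters both comparisons, but both sets of calls come from 1 fit with a spread shared by all 24 libraries. The overlap is therefore not a count of independent findings, and it was not counted over all genes. Of the 43 genes, 6 were called lower in neither comparison on either day: Ccnf, Ect2, Hmmr, Kif23, Ncaph and Ube2c. The count of day 2 stayed between 33 and 37 when each library was left out in turn. The count of day 1 was 2 without double knockout replicate 3, 7, 11 and 12 without ApccKO replicates 1, 2 and 3, and 0 without the 3 libraries that stood apart.

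**Figure D3:**
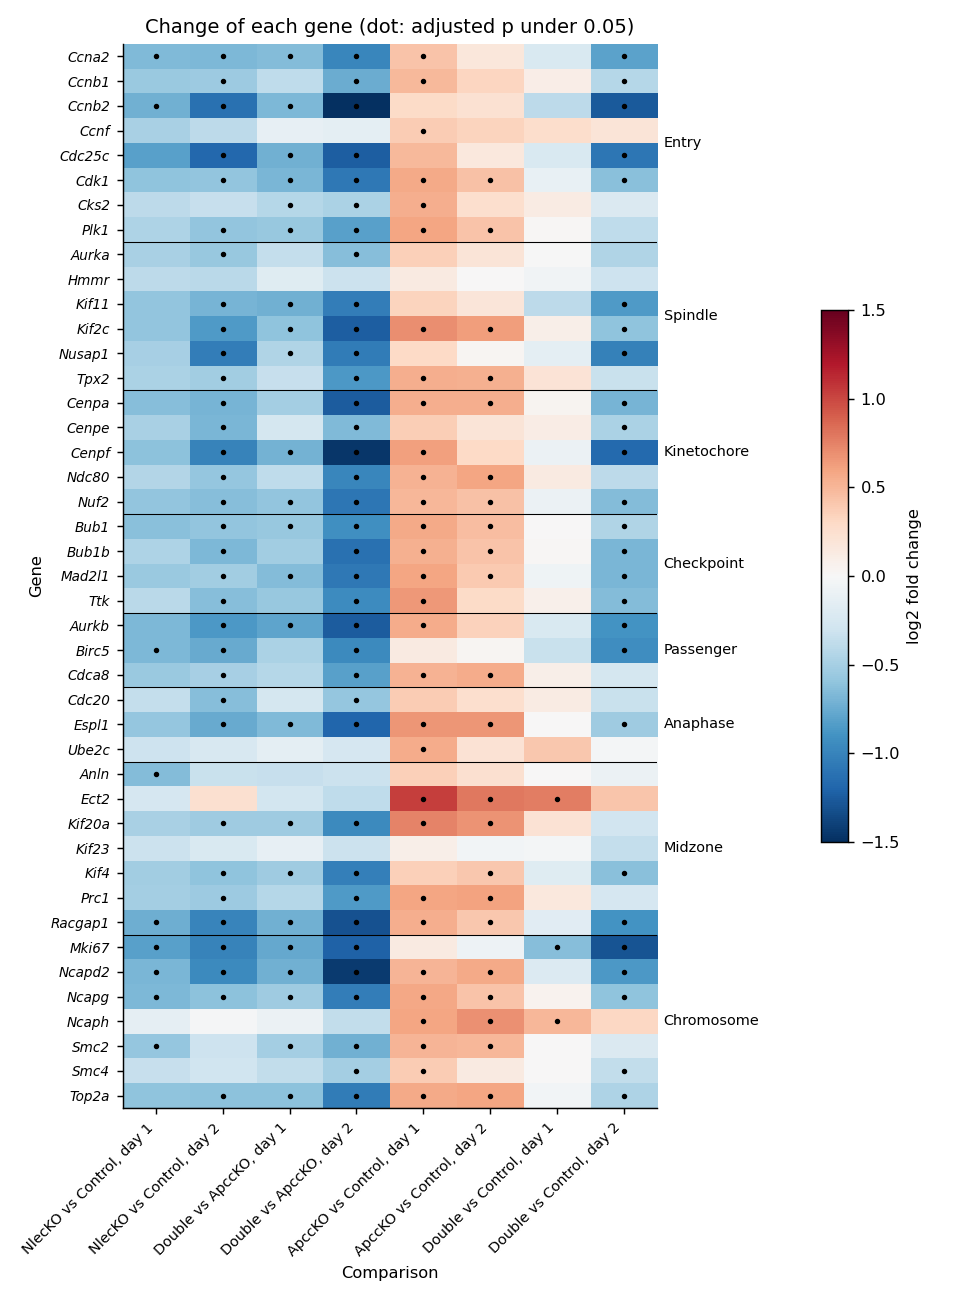
Log2 fold change (colour) of each of the 43 division genes, grouped by role, in 8 comparisons, with the group named first set against the second; dots mark adjusted p under 0.05. The columns of Nle1 loss (NlecKO against Control, double knockout against ApccKO) are lower for nearly all genes, the columns of ApccKO against Control higher, and the double knockout against Control near 0 on day 1 and lower on day 2.

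Loss of Apc with Nle1 present was read by comparing ApccKO with Control, and division genes were called higher on both days. The loss cannot be told apart from a batch of the Apc-lost run, and the counts depended on single libraries. On day 1, 30 of the 43 were called higher and 0 lower, where 24.7% of all genes were called higher and 25% lower, with a median log2 change of 0.53 and a range of 0.09 to 1.04. On day 2, 22 were called higher and 0 lower, where 29.2% of all genes were called higher and 29.4% lower, with a median of 0.39 and a range of -0.08 to 0.79. Of the 30 genes 21 were called again on day 2, a repeat not counted over all genes. The difference between the days in this effect was tested directly: 0 of the 43 were called by edgeR or DESeq2 and 0 had an unadjusted p under 0.05, where 0.526% of all genes were called higher and 0.604% lower, and the median difference was -0.12. The libraries did not overlap for 39 genes on day 1, against 29.6% of all genes, and for 25 on day 2, against 32.5%.

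The change on day 1 was largest for Ect2, encoding the exchange factor that activates RhoA at the cleavage furrow, at 131, 128.3 and 143.3 CPM in ApccKO crypts, against 47.93, 70.57 and 77.1 CPM in Control crypts (1.04 ± 0.20, adjusted p = 0.00036). Every ApccKO library lay far above the Control libraries. Kif20a, a kinesin gene of the midzone, gave the smallest p on both days (0.75 ± 0.14, adjusted p = 0.00031 on day 1 and 0.68 ± 0.14, adjusted p = 0.00048 on day 2). Top2a was at 491.7, 499.1 and 481.8 CPM in ApccKO crypts, against 256.6, 342 and 391.3 CPM in Control crypts (0.57 ± 0.17, adjusted p = 0.0077). Espl1 was at 88.09, 79.44 and 80.66 CPM in ApccKO crypts, against 44.71, 51.47 and 60.27 CPM in Control crypts (0.67 ± 0.17, adjusted p = 0.0034). In these genes the Control libraries were more spread than the ApccKO libraries.

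Of the 43 genes 12 were called on neither day: Anln, Aurka, Birc5, Ccnb2, Cdc20, Cdc25c, Cenpe, Hmmr, Kif11, Kif23, Mki67 and Nusap1. Mki67 was at 405.6, 417.4 and 416.1 CPM in ApccKO crypts, against 310.4, 392 and 423.9 CPM in Control crypts on day 1 (0.14 ± 0.16, adjusted p = 0.51). On day 2 it was at 367.3, 308.5 and 347.2 CPM in ApccKO crypts, against 309.8, 412.3 and 355.9 CPM in Control crypts (-0.08 ± 0.16, adjusted p = 0.71). The groups overlapped on both days. Of these 12 genes 9 were among those called lower in NlecKO against Control on day 2, also counted for the 43 genes only.

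By role, the genes called higher on day 1 were 6 of 8 entry, 2 of 6 spindle, 4 of 5 kinetochore, 4 of 4 checkpoint, 2 of 3 passenger, 2 of 3 anaphase, 4 of 7 midzone and 6 of 7 chromosome genes. On day 2 they were 2 of 8 entry, 2 of 6 spindle, 3 of 5 kinetochore, 3 of 4 checkpoint, 1 of 3 passenger, 1 of 3 anaphase, 5 of 7 midzone and 5 of 7 chromosome genes. Leaving out Control replicate 1 of day 1 gave 10 genes on day 1, and adjusted p for Top2a was then 0.057, while 24 were called without the 3 libraries that stood apart. On day 2, leaving out ApccKO replicate 1 or 3 gave 14 each, Control replicate 1 gave 11 and Control replicate 3 gave 13.

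**Figure D4:**
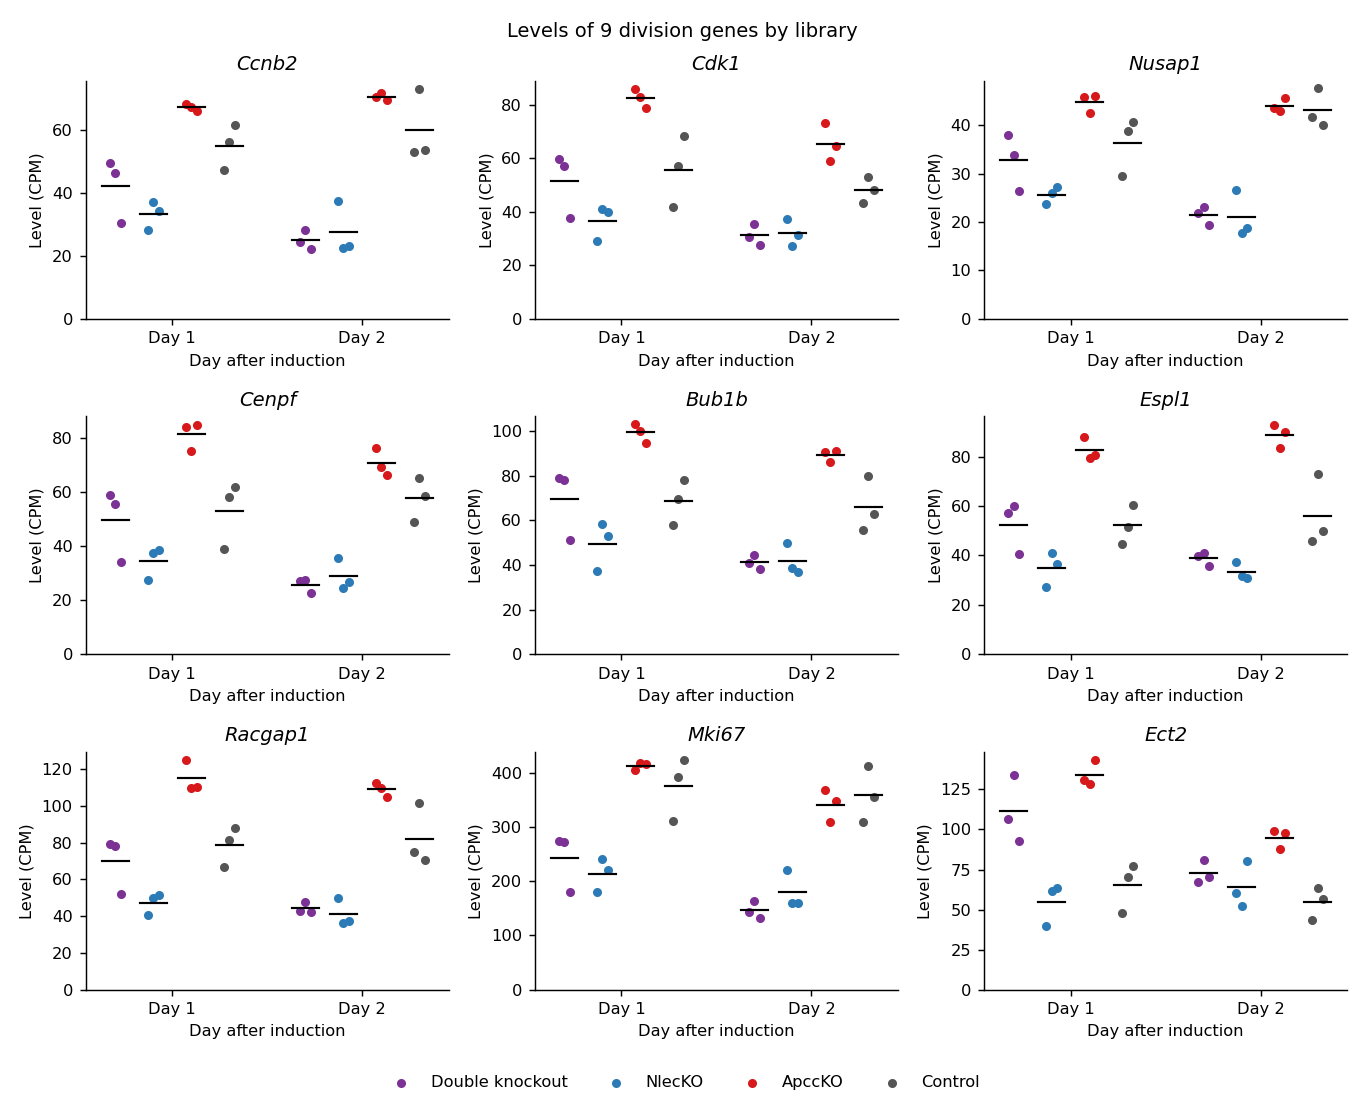
Level in CPM of 9 division genes in each library (points, 1 mouse each) by day, with double knockout, NlecKO, ApccKO and Control from left to right within a day and the mean of 3 mice as a bar. ApccKO libraries are the highest for most genes, Mki67 overlaps between ApccKO and Control, and Ect2 is higher in the double knockout than in Control on day 1.

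By group means, the double knockout lay between the single knockouts on day 1 and close to NlecKO on day 2. Its summed level overlapped that of NlecKO on both days. On day 1 its mean was between the NlecKO and ApccKO means for all 43 genes, and it was above the Control mean for 24 of them. On day 2 it was between the single knockout means for 27 genes and above the Control mean for 3. Its mean was below that of ApccKO for all 43 genes on both days. These positions were not counted over all genes, and the 43 moved together, so they are not separate observations.

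Against Control, 2 of the 43 genes were called higher and 1 lower in the double knockout on day 1, where 22.1% and 20.8% of all genes were called. The median log2 change was 0.01. The genes called higher were Ect2, at 106.8, 134 and 93.07 CPM in double knockout crypts, against 47.93, 70.57 and 77.1 CPM in Control crypts (0.77 ± 0.20, adjusted p = 0.0044), and Ncaph, a condensin subunit gene, at 71.31, 80 and 53.82 CPM in double knockout crypts, against 38.91, 53.66 and 52.2 CPM in Control crypts (0.50 ± 0.16, adjusted p = 0.015). The gene called lower was Mki67, at 274.1, 272 and 180 CPM in double knockout crypts, against 310.4, 392 and 423.9 CPM in Control crypts (-0.63 ± 0.16, adjusted p = 0.004). None of the 3 overlapped between the groups, and Ncaph only just. The call of Ncaph was lost without Control replicate 1 (adjusted p = 0.095) or double knockout replicate 2 (0.085), each of which left 1 gene higher, and 6 genes were higher without double knockout replicate 3, and 5 without the 3 libraries that stood apart. The count lower was 3 without Control replicate 1 and 2 without double knockout replicate 1 or 2.

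On day 2, 26 of the 43 were called lower and 0 higher in the double knockout against Control, where 26.7% of all genes were called lower and 27.3% higher. Without the 3 libraries that stood apart, 28 were lower. The median log2 change was -0.47 and the range -1.29 to 0.41, and the libraries did not overlap for 28 genes that were lower, against 29.4% of all genes. Mki67 changed most, at 143.7, 163.2 and 132.8 CPM in double knockout crypts, against 309.8, 412.3 and 355.9 CPM in Control crypts (-1.29 ± 0.17, adjusted p = 2.1e-06). Ccnb2 was at 24.52, 28.27 and 22.14 CPM in double knockout crypts, against 53.07, 72.92 and 53.6 CPM in Control crypts (-1.26 ± 0.19, adjusted p = 1.6e-05). In both genes a wide gap separated the highest double knockout library from the lowest Control library. At the other end Ect2 was at 66.95, 81.06 and 70.62 CPM in double knockout crypts, against 43.76, 63.58 and 56.6 CPM in Control crypts, without overlap, but was not called (0.41 ± 0.20, adjusted p = 0.089).

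Against NlecKO, 36 of the 43 were called higher and 0 lower in the double knockout on day 1, where 28.2% of all genes were called higher and 24.4% lower, with a median log2 change of 0.52. The libraries did not overlap for 18 genes, against 30.5% of all genes. Leaving out NlecKO replicate 1 or double knockout replicate 1 or 2 gave 18, 20 and 22, and 42 were called without the 3 libraries that stood apart. On day 2 only Ccnf was called higher and 0 genes lower, where 25.6% and 22.2% of all genes were called, with a median of 0.10 and a range of -0.30 to 0.58. Ccnf was at 40.77, 47.59 and 40.9 CPM in double knockout crypts, against 30.64, 25.65 and 30.11 CPM in NlecKO crypts (0.58 ± 0.16, adjusted p = 0.0051), without overlap.

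**Figure D5:**
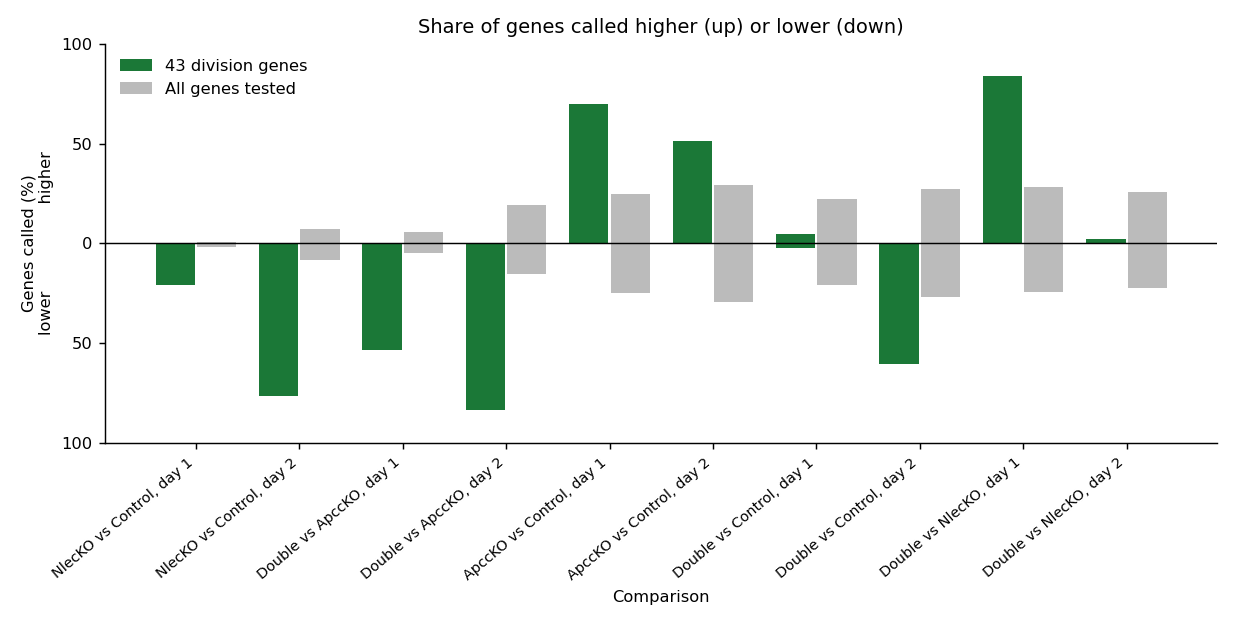
Share in percent of the 43 division genes (dark bars) and of all 16552 genes tested (grey bars) called higher (upward) or lower (downward) in 10 comparisons, with the group named first set against the second. The dark bars point downward for Nle1 loss and upward for ApccKO against Control, and are near 0 for the double knockout against Control on day 1 and against NlecKO on day 2.

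The difference between the effects of Nle1 loss with Apc lost and with Apc intact was tested directly. On day 1, 0 of the 43 genes were called, 0 had an unadjusted p under 0.05, and DESeq2 called 0, where 0.0121% of all genes were called higher and 0% lower; the median difference was 0.04. On day 2, 0 were called, 3 had an unadjusted p under 0.05, all on the lower side, and DESeq2 called 0, where 1.95% of all genes were called lower and 3.29% higher. The median difference on day 2 was -0.32, and 38 of the 43 were negative. Mad2l1, a checkpoint gene, gave the smallest p (-0.55 ± 0.22, adjusted p = 0.17). As the genes moved together across libraries (median correlation 0.93 after removal of the group means), these signs and p-values are not separate observations. With 0 differences past the threshold, a larger Nle1 effect in Apc-lost crypts was not shown by this fit for any gene.

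Between the days, division genes were called lower in the double knockout, by a count that depended on single libraries. In every genotype the day goes with the order of the code numbers. There 26 of the 43 were called lower and 0 higher on day 2 against day 1, where 3.04% of all genes were called lower and 3.46% higher, with a median log2 change of -0.61 and all 43 negative. Cenpf gave the smallest p, at 27.14, 27.31 and 22.5 CPM on day 2, against 58.88, 55.36 and 34.19 CPM on day 1 (-0.95 ± 0.20, adjusted p = 0.0082), without overlap. The count of 26 was 3 and 0 without double knockout replicates 1 and 2 of day 1, 7 and 0 without replicates 1 and 3 of day 2, and 0 in a fit to the 6 libraries compared, against 30 without the 3 libraries that stood apart. Adjusted p for Cenpf was 0.056 without double knockout replicate 2 of day 1 and 0.063 without replicate 3 of day 2.

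In the other genotypes 0 genes were called between days by the edgeR fit to all 24 libraries. In NlecKO the median log2 change was -0.12 and 0 genes had an unadjusted p under 0.05, where 0.0181% of all genes were called in each direction. In ApccKO the median was -0.20 and 0 genes were called, where 5.49% of all genes were called lower and 5.84% higher. An unadjusted p under 0.05 on the lower side was found for 8 genes, which moved together and are not separate observations. DESeq2 called 2 lower, the fit with a term for sex called 1 lower, and the fit to the 6 libraries compared called 11 lower and 1 higher. Of the 43 genes 26 were lower in ApccKO on day 2 without overlap, against 19% of all genes. In Control the median was -0.08, 0 genes had an unadjusted p under 0.05 and DESeq2 called 0, as in NlecKO, where 0.0544% of all genes were called lower and 0.109% higher.

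The day difference of the Nle1 effect was tested as well. With Apc lost, 0 genes were called by edgeR or DESeq2, where 0.193% of all genes were called lower and 0.242% higher, and 14 had an unadjusted p under 0.05 on the lower side. The median was -0.42, and 42 of the 43 were negative. Because the genes moved together across libraries, the 14 and the 42 are not separate observations, and a day difference was not shown for any gene. With Apc intact, 0 genes were called by either tool, where 0.00604% of all genes were called lower and 0% higher, 1 had an unadjusted p under 0.05, and the median was -0.05.

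The other genes of mitosis and cytokinesis, 126 tested genes of centrosome, spindle, kinetochore, cohesin, anaphase-promoting complex, cytokinesis and regulatory lists, mostly moved the same way. In NlecKO against Control, 32 were called lower and 1 higher on day 1, against 1.61% and 0.87% of all genes. On day 2, 64 were lower and 4 higher, against 8.26% and 7.33%. In the double knockout against ApccKO, 56 were lower and 4 higher on day 1, against 4.77% and 5.87% of all genes. On day 2, 95 were lower and 4 higher, against 15.4% and 19.5%. In ApccKO against Control, 87 were higher and 5 lower on day 1, against 24.7% and 25% of all genes. On day 2, 68 were higher and 9 lower, against 29.2% and 29.4%. Among them all 9 cytokinesis genes were lower in the double knockout against ApccKO on day 2, with a median of -1.20, and 7 of 17 subunit and regulator genes of the anaphase-promoting complex, with a median of -0.23. Over all 126 genes the medians on day 2 were -0.38 for NlecKO against Control and -0.74 for the double knockout against ApccKO.

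The genes that went against this direction on loss of Nle1 were few and are named after their values were seen. In NlecKO against Control on day 2 they were Psrc1, Gtse1, Ckap2 and Anapc4. Psrc1, a microtubule regulator known as a target of p53 in mouse cells, averaged 94.7 ± 27.2 CPM in NlecKO crypts and 11.0 ± 4.08 CPM in Control crypts (3.09 ± 0.31, adjusted p = 1e-05). Gtse1, a G2 and S phase protein also known as a p53 target, averaged 85.4 ± 21.6 CPM in NlecKO crypts and 28.7 ± 8.24 CPM in Control crypts (1.57 ± 0.26, adjusted p = 0.00063). Both were also higher in the double knockout against ApccKO on day 2, Psrc1 by 2.68 ± 0.30 (adjusted p = 3.6e-06) and Gtse1 by 1.83 ± 0.26 (adjusted p = 3.3e-05). The cell cycle inhibitor gene Cdkn1a, encoding p21 and a target of p53, was at 362.2, 497.3 and 703.9 CPM in NlecKO crypts, against 134.8, 111.3 and 142.1 CPM in Control crypts on day 2 (2.01 ± 0.21, adjusted p = 9.8e-06). It was at 631.5, 710.5 and 822 CPM in double knockout crypts, against 87.52, 122 and 73.03 CPM in ApccKO crypts (2.94 ± 0.22, adjusted p = 2.7e-08). Cdkn1a is 1 of a list of 12 inhibitor and growth arrest genes that moved both ways. In NlecKO against Control on day 2, 3 were higher and 3 lower (median 0), against 7.33% and 8.26% of all genes. In the double knockout against ApccKO on day 2, 5 were higher and 2 lower (median -0.01), against 19.5% and 15.4%. The part of p53 or p21 in the fall of the division genes was not tested.

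S phase genes, a list of 37 for replication licensing, forks and nucleotide supply, were set beside the division genes. In ApccKO against Control 36 of the 37 were higher on day 1 and 35 on day 2, where 24.7% and 29.2% of all genes were. The medians were 0.80 and 0.81, and the S phase sum was 177% and 179% of Control, against 138% and 127% for the division genes. In NlecKO against Control 20 and 16 were lower, where 1.61% and 8.26% of all genes were. The medians were -0.58 and -0.44, and the S phase sum was 67.3% and 75.7% of Control, against 68.0% and 65.2% for the division genes. In the double knockout of day 2 the S phase sum was 93.1% of Control with overlap, and the division sum 68.3% without overlap. The ratio of the division sum to the S phase sum lay between 1.07 and 1.18 in the 12 Apc-lost libraries and between 1.31 and 1.56 in the 12 Apc-intact libraries, so the ranges did not overlap. These are descriptions of sums over chosen genes.

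Other cell types moved with the genotypes. Counts of called markers are to be read beside the shares of all genes called. In NlecKO against Control these were 0.87% and 7.33% higher and 1.61% and 8.26% lower on days 1 and 2. In ApccKO against Control they were 24.7% and 29.2% higher and 25% and 29.4% lower. In the double knockout against ApccKO on day 2 they were 19.5% higher and 15.4% lower. The summed level of 10 enterocyte markers, such as Alpi and Fabp1, averaged 7062 ± 4841 CPM in double knockout, 30990 ± 7408 in NlecKO, 5420 ± 2858 in ApccKO and 18100 ± 8276 CPM in Control crypts on day 1, and 4524 ± 1427, 27780 ± 5025, 2129 ± 864 and 18430 ± 10160 CPM in the same groups on day 2. In NlecKO against Control 0 of the 10 were called on either day, whereas in ApccKO against Control 7 and 10 of the 10 were lower. The sum of 8 immune markers, including Ptprc and Cd3e, ranged from 42.8 to 63.1 CPM in double knockout, 103 to 240.3 in NlecKO, 24.6 to 68.1 in ApccKO and 103 to 235 CPM in Control crypts over both days. Of these 6 were lower in ApccKO against Control on each day, and 5 were higher in the double knockout against ApccKO on day 2. Enteroendocrine and stromal markers had larger sums in NlecKO than in Control crypts. On day 1 goblet markers (8928 to 9263 against 7672 to 8498 CPM) and tuft cell markers (60.98 to 67.85 against 44.16 to 57.55 CPM) did too, without overlap. On day 2 the goblet and tuft sums overlapped between these groups. The sum of 4 enteroendocrine markers was 608.4 to 695.6 CPM in NlecKO and 347.5 to 424.5 CPM in Control crypts on day 2 without overlap, and 2 and 3 of the 4 were called higher on days 1 and 2. The sum of 6 stromal markers averaged 49.1 ± 7.99 and 46.2 ± 11.6 CPM in NlecKO crypts on days 1 and 2, against 23.4 ± 2.11 and 25.0 ± 9.98 CPM in Control crypts, with overlap on day 2 only, and 1 of the 6 was called higher on each day. In the double knockout against ApccKO on day 2, 4 of 5 goblet markers and 4 of the 6 stromal markers were higher, and 1 goblet marker was lower. Within groups of 3 libraries, the library with the highest marker sum had the lowest division sum in 5 of 8 groups for enterocyte, 4 for immune and 1 for stromal markers. With 3 libraries in a group, some such matches arise by chance. In Control of day 1 the library highest in enterocyte markers was replicate 1, with 27180 CPM of enterocyte markers and 2462 CPM of division genes, and in the double knockout of day 1 it was replicate 3, with 12580 and 2227 CPM. Both were matches. In NlecKO of day 2, by contrast, replicate 1 was highest in enterocyte markers (31890 CPM) and also in division genes (2132 CPM). Of 6 stem cell markers, which include Lgr5, 6 and 5 were higher in ApccKO against Control, 2 were lower in NlecKO against Control on day 2, and 5 were lower in the double knockout against ApccKO on day 2. The part of these cell types in the changes of the division genes was not tested.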

How the data were processed

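The 24 libraries are of polyadenylated RNA, 1 for each mouse, and groups and replicate numbers came from the labels. The deposited table holds estimated counts per gene, made by the authors with kallisto 0.43 on the build mm9, per the submitters' processing notes; they name no annotation release. The authors' second table holds TPM values, used here only to set genes side by side. The authors' normalised table was not used, and 0 columns were left unmapped.

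Rounded counts went into a robust quasi-likelihood fit of edgeR 4.0.16 (limma 3.58.1, R 4.3.3) with 1 mean for each of the 8 groups and TMM scaling. Of 37620 genes, 16552 passed filterByExpr at a minimum count of 10, and p-values were adjusted over these by Benjamini-Hochberg at a threshold of 0.05. The SE was taken from the F statistic. Biological variation between mice had a coefficient of 17.6%. The precision of CPM is set by the spread of 3 mice.

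The 43 genes, their roles and the other lists were chosen with earlier results of these data known. Values per library are given for Mki67, Top2a, Ccnb1 and Cdk1, for the gene of each role with the smallest p in NlecKO against Control on day 2, and for genes called against the majority. The largest and smallest changes are named for each comparison, and outside the 43 only Nle1, Apc, Cdkn1a and up to 2 genes per list, besides genes said to be named after their values were seen. Promoter windows came from RefSeq (GRCm38.p6), and words of 31 bases were counted on GENCODE M21 transcripts. Alternatives were DESeq2 1.42.0, DESeq2 size factors, no filter, a filter of 2 CPM in 3 libraries, terms for replicate number and for sex read from Y-linked genes, a fit restricted to the compared groups, and leaving out libraries.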

Additional observations from a re-analysis of the deposited data

How the results depend on the processing

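For 25 genes given with values, 12 comparisons were repeated under the alternatives, and no change turned its sign while called. Of these 4350 values, 3952 stayed on the same side of the threshold, 291 lost a call and 107 gained one; most count changes came from fitting only the libraries compared or leaving out 1 library. For NlecKO against Control on day 1 the 9 genes called lower were 25 with DESeq2, 5 without the filter, 14 without the 3 libraries that stood apart and 0 with only the libraries compared, and on day 2 the 33 were 6 with only those. For the double knockout against ApccKO on day 1 the 23 were 1 with only the libraries compared and 0 without the 3 libraries, which leaves 1 ApccKO library that is assumed to vary like the others. For the double knockout against NlecKO the 36 higher of day 1 were 20, and the 1 of day 2 was 2, with only the libraries compared. For the double knockout against Control, the 2 higher of day 1 were 5 without the 3 libraries and 1 with only the libraries compared, and the 1 lower was 2 with DESeq2; on day 2 the 0 higher were 1 with the term for sex and 1 with only the libraries compared. For the interaction on day 2 the term for sex gave 1 lower. Between days, ApccKO gave 2 lower with DESeq2, 1 with the term for sex and 11 with only the libraries compared, which also gave 1 higher, and the 26 lower of the double knockout were 0 with only those. The cause was not tested.

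Leaving out each library in turn gave, for NlecKO against Control, 0 to 34 lower on day 1 and 13 to 34 on day 2; for ApccKO against Control, 10 to 37 and 11 to 28 higher; and for the double knockout against ApccKO, 2 to 26 and 33 to 37 lower. It gave 18 to 42 and 1 to 1 higher for the double knockout against NlecKO, 1 to 6 higher and 1 to 3 lower on day 1 and 0 to 1 higher and 18 to 32 lower on day 2 for the double knockout against Control, and 0 to 37 lower between days in the double knockout. Replicate numbers gave no clear pairing of the mice, though 3 libraries per group cannot exclude one. Of 36 same-numbered pairs 10 correlated above 0.1, from -0.27 to 0.26, and 13 correlated best with their own number. By Y-linked genes, replicate 1 was male in each group except ApccKO of day 1, where replicate 2 was. Replicate 2 was also male in NlecKO of day 2. Number and sex thus largely go together, and leaving out replicate 1 of Control or NlecKO on day 1 removes the only male of that group. With replicate number as a block the counts were 7 and 32 lower for NlecKO against Control, 29 and 21 higher for ApccKO against Control, and 21 and 36 lower for the double knockout against ApccKO, and no count moved by over 1.5 times. TTTGAA or TTCGAA stood in 29 of 37 windows.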
